A study of Mus musculus with 8 samples.

Results

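The 33 genes described here encode NRF2, its inhibitor KEAP1, and enzymes and transporters of glutathione, thioredoxin, NADPH, peroxide and heme metabolism. They were chosen by function from a list of symbols, and all 33 were found among the 41444 genes of the table. Expression was measured by RNA-seq in macrophages grown from the bone marrow of wild-type C57BL/6 mice in medium with M-CSF, the growth factor that drives macrophage differentiation. One group of 4 libraries received vehicle and the other group of 4 received 6 nM SLIT2, a secreted ligand of ROBO receptors, for 16 hours. The comparison asks how SLIT2 alters transcription in these cells. The labels give neither the number of mice nor whether marrow was pooled, and the replicates are not said to be separate cultures, so each p-value reflects library-to-library spread that may be technical.

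NRF2, encoded by Nfe2l2, is a transcription factor that KEAP1 holds in the cytoplasm and hands to the proteasome. When KEAP1 is modified by electrophiles or oxidants, NRF2 accumulates, pairs with small MAF proteins and binds antioxidant response elements near genes of glutathione and thioredoxin metabolism, NADPH supply and detoxification. Macrophages produce superoxide and peroxide themselves through the phagocyte NADPH oxidase and also take up heme from dying red cells, and these enzymes are known for limiting the damage that follows. NRF2 is controlled largely at the level of its protein, which RNA-seq does not measure.

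Values are regularized-log (rlog) values, which lie on a log2 scale, so a difference of 1 is a factor of 2 before the shrinkage that the transform applies. Because the table holds no read counts, depth is unknown and counting intervals are not given. Of the 33 genes, 32 reached the minimum mean rlog of 4 for testing. The remaining one, Gsta4, a glutathione transferase gene, lay between 1.41 and 1.57 in all libraries. The libraries of replicates 1 and 2 stood apart from those of replicates 3 and 4 in both groups. These are called replicate sets here, the labels do not say what they share, and values within sets are given for the genes where they matter most. In bulk RNA, fewer cells of a type and less RNA per cell cannot be told apart.

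Most of these genes were lower with SLIT2, and the genes of the regulators NRF2 and KEAP1 did not pass the test. At an adjusted p of 0.05 (limma, Benjamini-Hochberg over all genes tested), 12 of the 32 genes fell, which is 37.5%, where 6.58% of all 11851 genes tested fell. They were Srxn1, Cat, Gstm1, Gclm, Prdx1, Gclc, Sod1, Me1, Txnrd1, Pgd, Taldo1 and Blvrb. Sod2 and Prdx5 rose, which is 6.25% of the 32 against 6.76% of all genes tested. The difference was negative for 28 of the 32 genes and for 49.1% of all genes tested. Its median was -0.30 over the 32 genes and 0.003 over all genes tested. With replicate number as a block, 22 of the 32 fell (16.4% of all genes tested) and 3 rose (16.6%). With duplicates averaged within a group and set as a block, 3 of the 32 fell (315 of all 11851 genes tested) and 0 rose (373). Of the genes called with the block and not without it, only Slc7a11 passed with duplicates averaged. Vehicle and SLIT2 values did not overlap for 14 genes that were lower with SLIT2 (9.99% of all genes tested) and for 2 that were higher (10.6%).

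**Figure D1:**
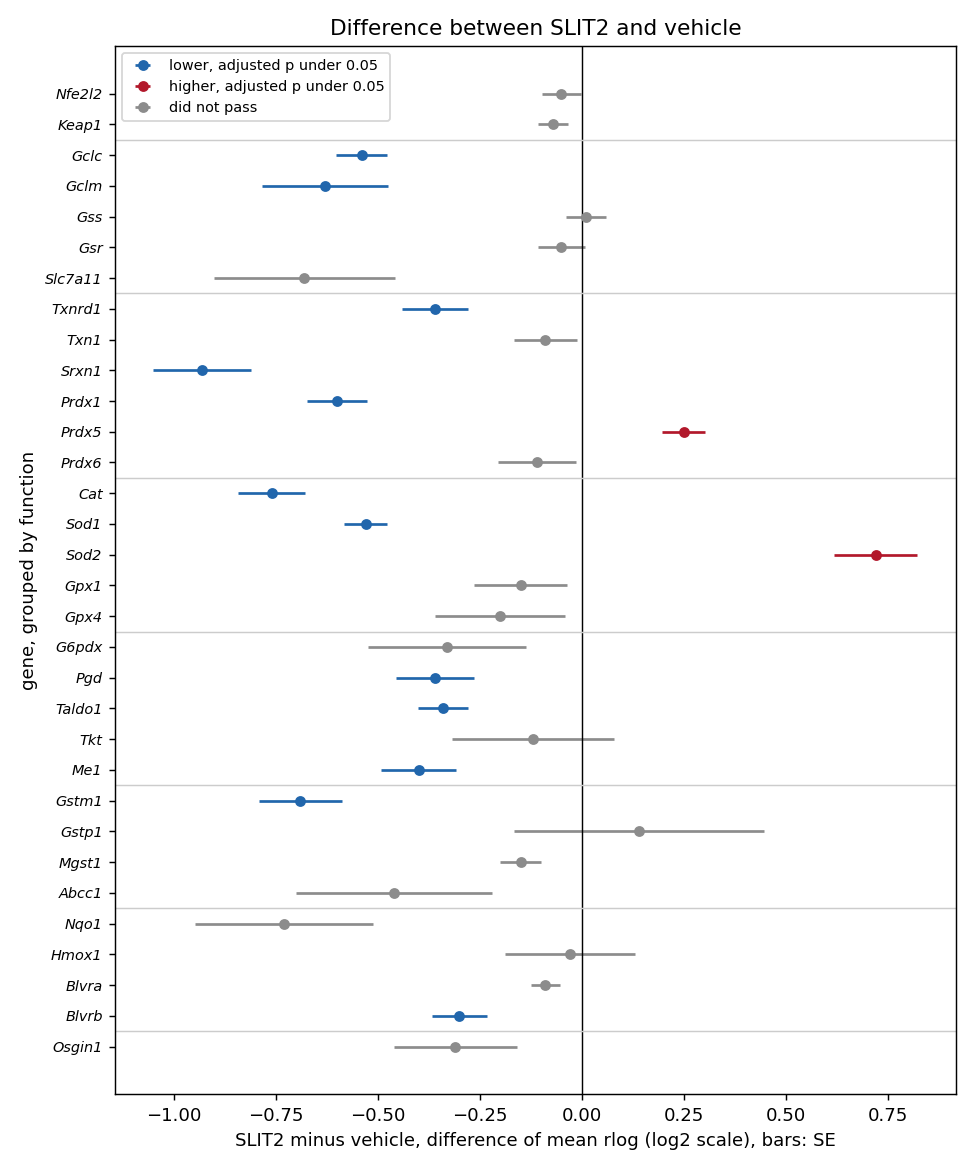
Difference between SLIT2 and vehicle (horizontal axis, log2 scale) for each of the 32 genes tested (vertical axis, grouped by function), with bars for the standard error of the limma fit and 4 libraries per group. Blue points are the 12 genes that fell, red points the 2 that rose, and grey points did not pass. Srxn1 has the widest negative difference and Sod2 the widest positive one.

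**Figure D2:**
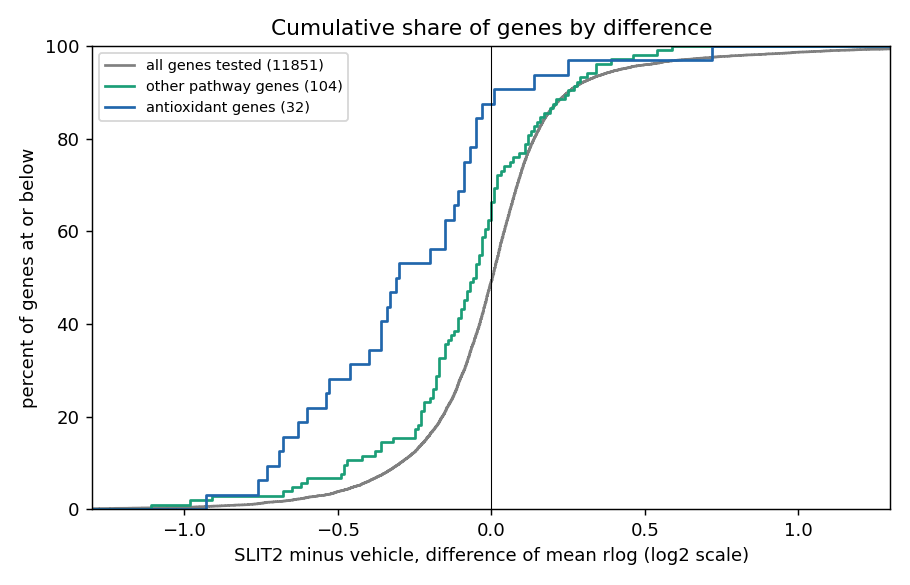
Cumulative percent of genes (vertical axis) at or below a given difference between SLIT2 and vehicle (horizontal axis, log2 scale) for all 11851 genes tested, for 104 other genes of the pathway and for the 32 antioxidant genes. The curve of the 32 genes lies to the left, with a median of -0.30 against 0.003 for all genes tested.

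Because NRF2 acts through the antioxidant response element, the promoters of these genes were searched for its core, TGACNNNGC, on both strands, in the RefSeq windows from 250 bases before to 50 bases after each transcription start (GRCm38.p6). The table of promoters held 27 of the 33 genes and did not hold Gclc, Gsr, Prdx6, Gsta4, Hmox1 and Abcc1. A match was found for 11 of the 27 genes (40.7%), where 14.0% of all genes with a promoter in the table had one in any of their promoters. Of the genes that fell, 11 had a promoter in the table and 7 of these had a match, namely Gclm, Me1, Pgd, Prdx1, Sod1, Srxn1 and Txnrd1. In Me1 and Prdx1 the match reads TGACTCAGC, which contains the AP-1 motif TGACTCA. A match describes these letters and is not evidence of binding, and enhancers outside the windows were not searched. The 4 promoters shown are those of genes that fell whose match lies wholly before the start. Each is printed 5′ to 3′ as the 250 bases before the start, in lower case, with the match in capitals; all 4 matches lie on the strand opposite to the gene, so the capitals read as the reverse complement of the core.
Gclm, chr3:122245307-122245556, plus strand: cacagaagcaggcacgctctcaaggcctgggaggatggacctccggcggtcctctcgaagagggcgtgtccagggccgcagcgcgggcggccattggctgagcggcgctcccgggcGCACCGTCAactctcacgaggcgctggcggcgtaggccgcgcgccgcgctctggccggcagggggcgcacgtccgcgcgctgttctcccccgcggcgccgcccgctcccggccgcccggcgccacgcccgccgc
Prdx1, chr4:116685349-116685598, plus strand: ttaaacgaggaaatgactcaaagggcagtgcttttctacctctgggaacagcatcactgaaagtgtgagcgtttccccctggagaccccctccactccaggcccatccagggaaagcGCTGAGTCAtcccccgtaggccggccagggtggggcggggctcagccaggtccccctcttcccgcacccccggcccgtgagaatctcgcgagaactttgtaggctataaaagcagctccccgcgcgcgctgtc
Sod1, chr16:90220512-90220761, plus strand: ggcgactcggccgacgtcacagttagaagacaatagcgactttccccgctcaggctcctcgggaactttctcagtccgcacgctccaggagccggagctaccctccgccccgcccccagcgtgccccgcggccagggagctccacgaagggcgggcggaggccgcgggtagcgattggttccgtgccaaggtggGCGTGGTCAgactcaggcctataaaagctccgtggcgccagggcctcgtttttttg
Txnrd1, chr10:82858956-82859205, plus strand: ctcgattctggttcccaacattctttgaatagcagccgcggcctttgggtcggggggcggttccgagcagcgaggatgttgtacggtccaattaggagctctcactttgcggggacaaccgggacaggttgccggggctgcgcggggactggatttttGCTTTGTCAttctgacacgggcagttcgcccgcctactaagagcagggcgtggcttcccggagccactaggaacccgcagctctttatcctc
The first base of the match lies 134 bases before the start in Gclm, 133 in Prdx1, 56 in Sod1 and 92 in Txnrd1, whose table entry has 3 promoters, of which 1 had a match.

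Nfe2l2 was expressed at nearly the same level in every library. It read 13.80, 13.83, 13.77 and 13.76 in vehicle replicates 1 to 4 and 13.82, 13.78, 13.70 and 13.66 in SLIT2 replicates 1 to 4. The groups overlapped, and the difference was -0.05 (SE 0.047, adjusted p = 0.576 by limma). Keap1 read 10.96, 10.89, 10.92 and 10.97 in vehicle and 10.86, 10.88, 10.87 and 10.87 in SLIT2. Every SLIT2 library lay below every vehicle library, by a margin of hundredths, and the difference of -0.07 did not pass (SE 0.037, adjusted p = 0.318). An antisense RNA, Gm16754, shares 510 exonic bases with Keap1, and the sources used here do not give the strand setting of the counting.

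Both subunits of glutamate-cysteine ligase, the rate-limiting enzyme of glutathione synthesis, fell with SLIT2. Gclc, the catalytic subunit (ENSMUSG00000032350, chromosome 9, 77754535 to 77794485, GRCm38), read 10.89, 10.86, 10.65 and 10.71 in vehicle and 10.19, 10.24, 10.29 and 10.24 in SLIT2. The groups were separated by a clear gap, and the SLIT2 mean was lower by a factor of 1.45 (log2 difference -0.54, SE 0.063, adjusted p = 0.00106). Gclm, the modifier subunit (ENSMUSG00000028124, chromosome 3, 122245557 to 122270732), read 12.29, 12.38, 11.66 and 11.93 in vehicle and 11.49, 11.41, 11.57 and 11.27 in SLIT2. Its vehicle libraries spread more widely, with replicates 3 and 4 low, and SLIT2 replicate 3 lay just under vehicle replicate 3. The difference was -0.63 (SE 0.16, adjusted p = 0.0332), and it passed in 1 of the 8 fits that left out a library, that without vehicle replicate 3 (highest adjusted p = 0.0841).

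The remaining genes of glutathione supply did not pass. Slc7a11, the cystine importer that feeds glutathione synthesis, read 9.86, 9.84, 9.11 and 9.64 in vehicle and 9.08, 9.27, 8.97 and 8.40 in SLIT2. The groups overlapped through vehicle replicate 3, and the difference of -0.68 did not pass (SE 0.22, adjusted p = 0.0863). It passed when replicate number was a block (adjusted p = 0.0220) and when vehicle replicate 3 was left out (adjusted p = 0.0375). Gss, which adds glycine to complete glutathione, differed by 0.01 (SE 0.049, adjusted p = 0.930). Gsr, which returns oxidized glutathione to its reduced form, differed by -0.05 (SE 0.058, adjusted p = 0.685). For both of these genes the vehicle and SLIT2 values overlapped.

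In the thioredoxin system, 3 of 6 genes fell, 1 rose and 2 did not pass. Srxn1, which encodes sulfiredoxin, the enzyme that repairs overoxidized peroxiredoxins (ENSMUSG00000032802, chromosome 2, 152105516 to 152111376), had the widest drop of the 32 genes. It read 12.78, 12.77, 12.24 and 12.42 in vehicle and 11.69, 11.61, 11.60 and 11.60 in SLIT2. The SLIT2 libraries were tightly grouped while the vehicle libraries differed by set, and the SLIT2 mean was lower by a factor of 1.90 (log2 difference -0.93, SE 0.12, adjusted p = 0.00170). Prdx1, a cytosolic peroxiredoxin and a substrate of sulfiredoxin (ENSMUSG00000028691, chromosome 4, 116685544 to 116700822), read 16.61, 16.66, 16.35 and 16.50 in vehicle and 15.94, 15.91, 15.96 and 15.93 in SLIT2. It too was nearly constant in the SLIT2 group, and it was lower there by a factor of 1.51 (log2 difference -0.60, SE 0.073, adjusted p = 0.00129). After subtraction of log2 exon length in kilobases, Prdx1 had the highest vehicle level of the 33 genes, at 14.92.

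Txnrd1, the cytosolic thioredoxin reductase, read 13.16, 13.13, 12.84 and 12.92 in vehicle and 12.64, 12.76, 12.62 and 12.60 in SLIT2. The groups did not overlap, and the difference was -0.36 (SE 0.080, adjusted p = 0.0224). The call was lost in 5 of the 8 fits that left out a library, those without vehicle replicate 1 or 2 or SLIT2 replicate 1, 3 or 4 (highest adjusted p = 0.0611). Txn1, the thioredoxin that this reductase keeps reduced, differed by -0.09 (SE 0.077, adjusted p = 0.547). Prdx6, a peroxiredoxin that uses glutathione, differed by -0.11 (SE 0.096, adjusted p = 0.565).

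Prdx5, a peroxiredoxin of mitochondria, peroxisomes and cytosol, moved the other way. It read 11.52, 11.62, 11.49 and 11.58 in vehicle and 11.85, 11.87, 11.80 and 11.69 in SLIT2. The groups did not overlap, and the rise was 0.25 (SE 0.053, adjusted p = 0.0172). The call was lost in 4 fits, without vehicle replicate 1 or 3 or SLIT2 replicate 1 or 2 (highest adjusted p = 0.0543). Trmt112 shares 409 exonic bases with Prdx5 on the opposite strand, so part of its value is uncertain without a stated strand setting.

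Among the enzymes that remove superoxide and peroxide, catalase and the cytosolic superoxide dismutase fell while the mitochondrial dismutase rose. Cat, the peroxisomal catalase (ENSMUSG00000027187, chromosome 2, 103453849 to 103485160), read 14.85, 14.83, 14.63 and 14.75 in vehicle and 13.91, 13.89, 14.20 and 14.03 in SLIT2. The SLIT2 mean was lower by a factor of 1.69 (log2 difference -0.76, SE 0.082, adjusted p = 7.19e-04). Sod1 (ENSMUSG00000022982, chromosome 16, 90220754 to 90226329) read 12.15, 12.20, 12.22 and 12.28 in vehicle and 11.63, 11.60, 11.74 and 11.77 in SLIT2. In both genes all SLIT2 libraries lay well below all vehicle libraries. Sod1 was lower by a factor of 1.44 (log2 difference -0.53, SE 0.052, adjusted p = 5.04e-04), by 0.56 in replicates 1 and 2 and 0.50 in replicates 3 and 4.

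Sod2, the manganese enzyme of the mitochondrial matrix (ENSMUSG00000006818, chromosome 17, 13006846 to 13040063), read 11.40, 11.42, 11.48 and 11.41 in vehicle and 12.26, 12.40, 12.05 and 11.89 in SLIT2. Here the vehicle libraries were the tight group, and the SLIT2 mean was higher by a factor of 1.65 (log2 difference 0.72, SE 0.10, adjusted p = 0.00269). Gpx1 and Gpx4, which use glutathione to reduce peroxides, did not pass. Gpx1 differed by -0.15 (adjusted p = 0.471, or 0.0157 in the blocked fit), by -0.18 in replicates 1 and 2 and -0.12 in replicates 3 and 4. Gpx4, which protects membrane lipids, differed by -0.20 (adjusted p = 0.494, 0.00863 in the blocked fit, 0.0834 with duplicates averaged). Its difference was -0.19 and -0.21 in the sets. Both were higher in replicates 3 and 4 than in replicates 1 and 2, Gpx1 by 0.31 and Gpx4 by 0.44.

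**Figure D3:**
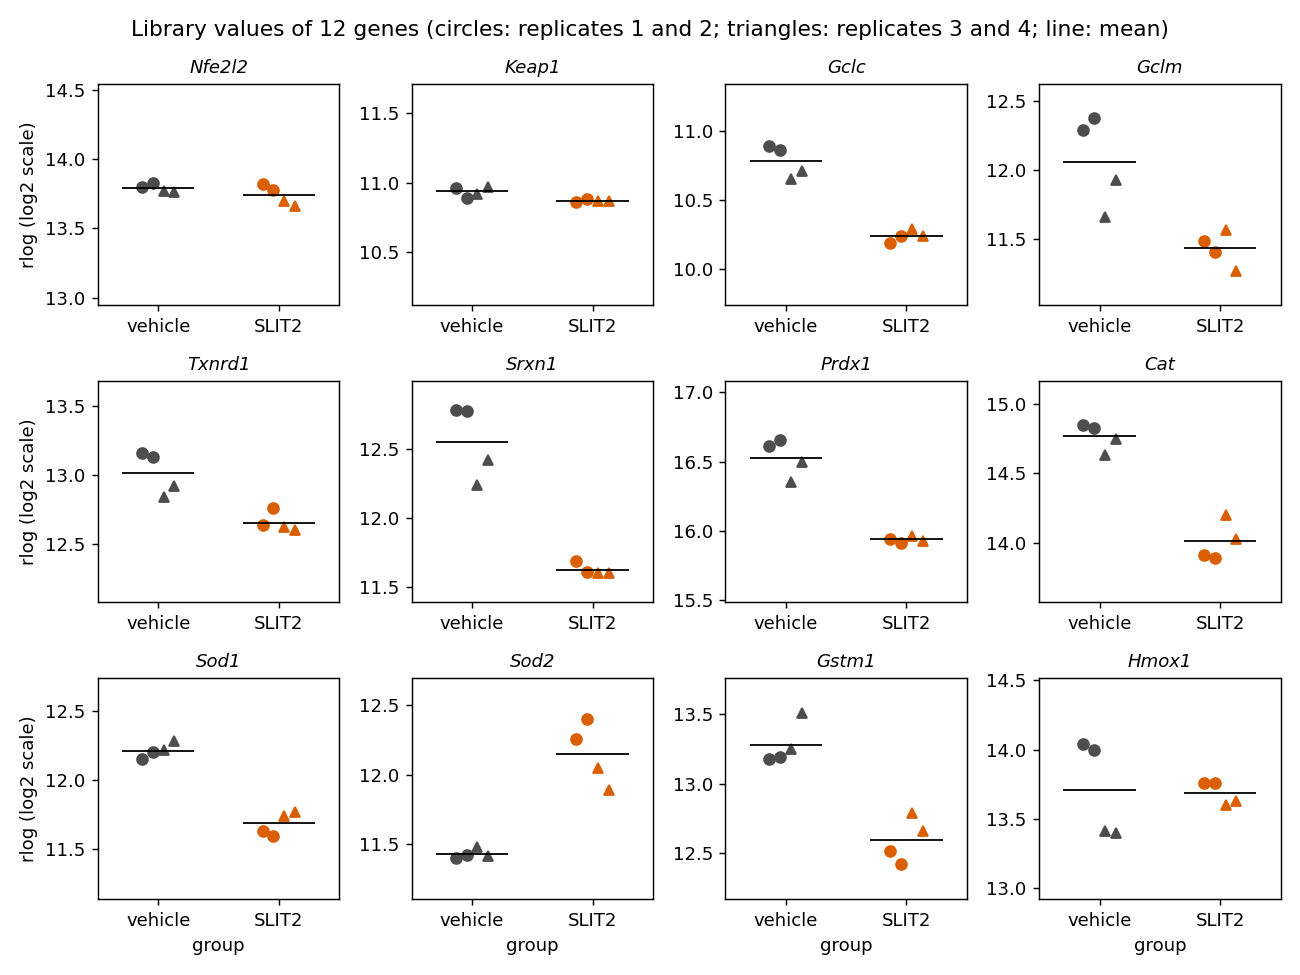
Values of 12 genes (vertical axes, rlog on a log2 scale, each spanning the same range of 1.6) in the vehicle and SLIT2 groups (horizontal axes), with 1 symbol per library and a line at the mean of 4. Circles are replicates 1 and 2 and triangles replicates 3 and 4. Nfe2l2 and Keap1 are nearly flat, Srxn1, Prdx1 and Cat are lower in all SLIT2 libraries, Sod2 is higher in all of them, and Hmox1 differs by replicate set.

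All 5 genes grouped under NADPH supply had negative differences, and 3 of them passed. NADPH is the reductant on which glutathione and thioredoxin recycling depend. Not every gene of the group encodes an enzyme that makes NADPH itself. Taldo1, the transaldolase of the non-oxidative pentose phosphate pathway, read 13.76, 13.75, 13.64 and 13.91 in vehicle and 13.38, 13.38, 13.49 and 13.46 in SLIT2. It was lower by a factor of 1.26 (log2 difference -0.34, SE 0.062, adjusted p = 0.00918). Pgd, the second dehydrogenase of the oxidative branch, read 13.97, 13.97, 13.60 and 13.72 in vehicle and 13.55, 13.53, 13.41 and 13.35 in SLIT2. Its groups did not overlap, and its difference of -0.36 (SE 0.095, adjusted p = 0.0431) passed in 1 of the 8 fits that left out a library, that without vehicle replicate 3 (highest adjusted p = 0.106). Me1, the cytosolic malic enzyme, read 8.82, 8.80, 8.46 and 8.58 in vehicle and 8.26, 8.22, 8.35 and 8.22 in SLIT2. It differed by -0.40 (SE 0.092, adjusted p = 0.0239), and the call was lost in 5 fits, without vehicle replicate 1 or 2 or SLIT2 replicate 1, 2 or 4 (highest adjusted p = 0.0688).

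G6pdx, the first enzyme of the oxidative branch and an X-linked gene, read 13.31, 13.30, 12.68 and 12.65 in vehicle and 12.89, 12.86, 12.44 and 12.43 in SLIT2. SLIT2 libraries were lower than vehicle libraries within each replicate set, but the sets lay further apart than the groups, so the groups overlapped. The difference was -0.33 (adjusted p = 0.339, 0.00306 in the blocked fit, 0.0925 with duplicates averaged). Ikbkg shares 418 exonic bases with G6pdx on the opposite strand. Tkt, the transketolase, differed by -0.12 (adjusted p = 0.767, 0.0360 in the blocked fit, 0.178 with duplicates averaged). Its sets differed by 0.56 in vehicle and 0.55 in SLIT2, both lower in replicates 3 and 4.

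Of the genes of conjugation and export, Gstm1 fell. Gstm1, a mu-class glutathione transferase (ENSMUSG00000058135, chromosome 3, 108012255 to 108017973), read 13.18, 13.19, 13.25 and 13.51 in vehicle and 12.51, 12.42, 12.79 and 12.66 in SLIT2. The SLIT2 mean was lower by a factor of 1.61 (log2 difference -0.69, SE 0.10, adjusted p = 0.00321), with a gap between the groups in both sets (-0.72 in replicates 1 and 2 and -0.65 in replicates 3 and 4). Mgst1, a membrane-bound transferase, differed by -0.15 (adjusted p = 0.100). It passed in the blocked fit (0.0349) and without SLIT2 replicate 3 (0.0274), but not with duplicates averaged (0.122). Abcc1, which exports glutathione conjugates, read 12.98, 12.93, 12.13 and 12.18 in vehicle and 12.38, 12.34, 11.83 and 11.82 in SLIT2. As with G6pdx, it was lower with SLIT2 inside each set and overlapped across sets. The difference was -0.46 (adjusted p = 0.273, 0.00203 with the block, 0.0784 with duplicates averaged). Gstp1, the pi-class transferase, had a positive difference of 0.14 (adjusted p = 0.838, 0.0406 with the block, 0.192 with duplicates averaged). Gstp1 was lower by 0.87 in replicates 3 and 4 than in replicates 1 and 2. Its transcript is 98.2% identical to Gstp2 over 707 bases, and the table lists Gstp2 at a mean of -0.35.

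The heme and quinone genes gave 1 passing result among 4. Blvrb, a biliverdin and flavin reductase, read 12.77, 12.77, 12.50 and 12.61 in vehicle and 12.31, 12.37, 12.43 and 12.34 in SLIT2. Its groups did not overlap, and its difference of -0.30 (SE 0.068, adjusted p = 0.0235) was lost in 5 fits, without vehicle replicate 1 or 2 or SLIT2 replicate 1, 2 or 4 (highest adjusted p = 0.0653). Blvra, which turns biliverdin into bilirubin, differed by -0.09 (adjusted p = 0.143, 0.0397 with the block, 0.232 with duplicates averaged). Nqo1, the quinone reductase often used as a readout of NRF2, read 8.50, 8.47, 7.59 and 7.84 in vehicle and 7.60, 7.33, 7.41 and 7.12 in SLIT2. The groups met at vehicle replicate 3 and SLIT2 replicate 1, and the difference of -0.73 did not pass (SE 0.22, adjusted p = 0.0634). It passed in the blocked fit (0.0128) and without vehicle replicate 3 (0.0261), but not with duplicates averaged (0.111). Osgin1, an oxidative stress-induced growth inhibitor, read 9.44, 9.47, 8.96 and 8.98 in vehicle and 9.10, 9.03, 8.82 and 8.68 in SLIT2. It overlapped through the low vehicle replicates 3 and 4 (difference -0.31, adjusted p = 0.252, 0.0100 with the block, 0.109 with duplicates averaged).

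Hmox1, which encodes the heme oxygenase that opens the heme ring, showed opposite differences in the replicate sets. It read 14.04, 14.00, 13.41 and 13.40 in vehicle and 13.76, 13.76, 13.60 and 13.63 in SLIT2. In replicates 1 and 2 SLIT2 was lower by 0.26, and in replicates 3 and 4 it was higher by 0.21. Over all libraries the difference was -0.03 (SE 0.16, adjusted p = 0.947), and the change of effect between the sets was 0.47 (limma interaction, adjusted p = 0.00161).

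**Figure D4:**
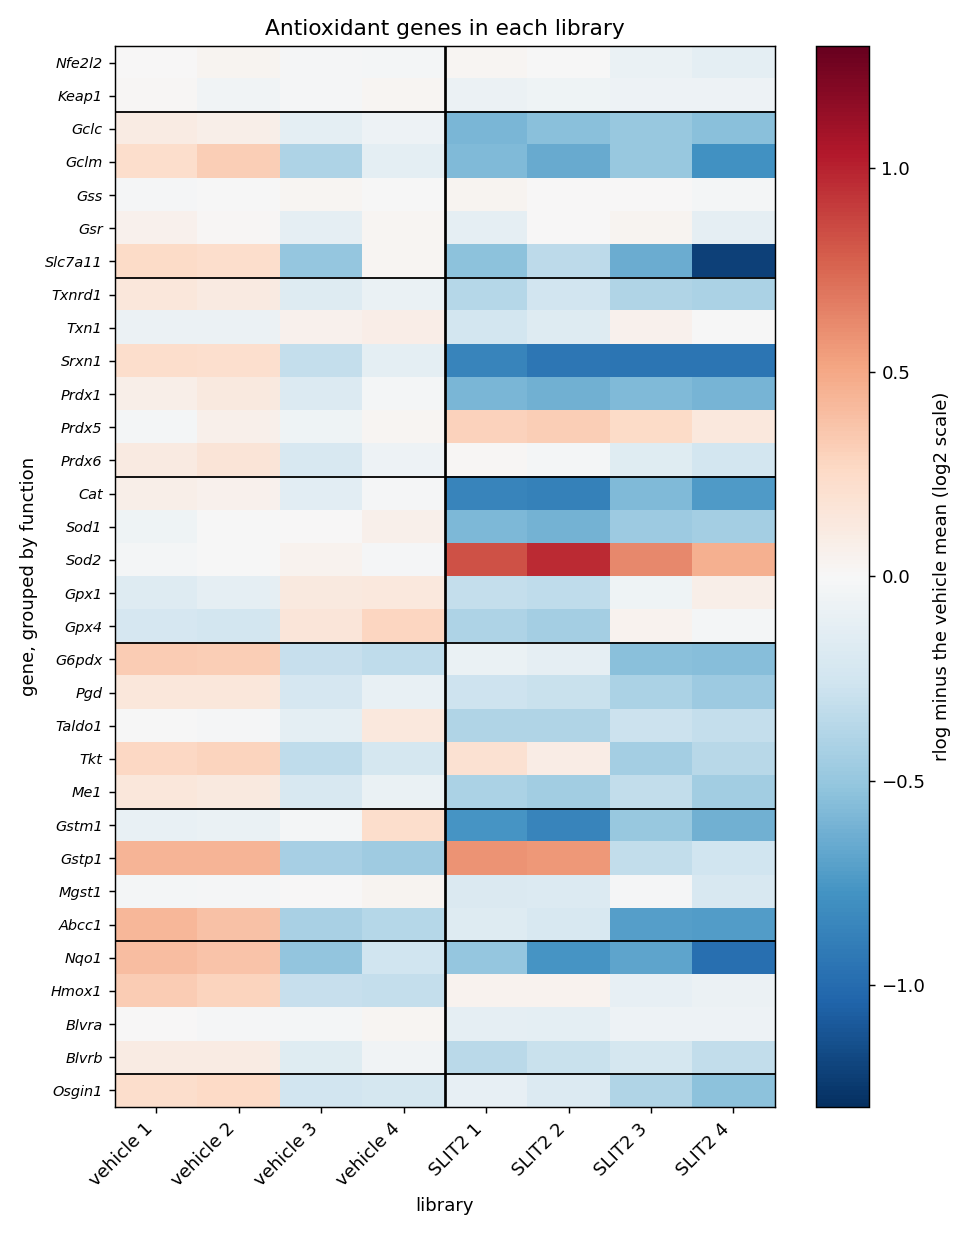
Each of the 32 genes tested (vertical axis, grouped by function) in each of the 8 libraries (horizontal axis), coloured by rlog minus the vehicle mean on a log2 scale. Srxn1, Cat, Gstm1 and Prdx1 are blue in all 4 SLIT2 libraries, Sod2 is red in all 4, Gstp1 and Tkt turn from red to blue between replicates 2 and 3 in both groups, and G6pdx and Abcc1 are bluer in replicates 3 and 4.

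The replicate sets differed both in the level of these genes and in how far SLIT2 moved them. In replicates 3 and 4, 13 of the 32 genes were lower than in replicates 1 and 2 (31.2% of all genes tested) and 5 were higher (25.8%). Srxn1 in vehicle was lower by 0.44 in replicates 3 and 4 than in replicates 1 and 2, while in SLIT2 this gap was 0.05. Gclm had gaps of 0.54 in vehicle and 0.03 in SLIT2, and Nqo1 of 0.77 and 0.20, in the same direction. For Gclm and Nqo1 the change of effect between the sets did not pass (limma interaction, adjusted p = 0.11 and 0.144). The gap was smaller in SLIT2 for 19 of the 32 genes, and the share over all genes tested was not computed. In Sod2 the gap was wider in SLIT2, with replicates 3 and 4 higher by 0.04 in vehicle and lower in SLIT2, at -0.36. The absolute difference between SLIT2 and vehicle was smaller in replicates 3 and 4 for 27 of the 32 genes and for 57.1% of all genes tested. Over the 32 genes the median was -0.38 within replicates 1 and 2 against -0.22 within replicates 3 and 4.

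The effect of SLIT2 differed between the sets for 6 of the 32 genes (limma interaction term), where it did for 4.40% of all genes tested. It rests on the spread within duplicates. SLIT2 lowered Srxn1 by 1.12 and 0.73 in the 2 sets (adjusted p = 0.0315 for the difference), Cat by 0.94 and 0.58 (0.0459), Abcc1 by 0.60 and 0.33 (0.0196) and G6pdx by 0.43 and 0.23 (0.0276). Sod2 was higher by 0.92 and 0.53 (adjusted p = 0.0447), and Hmox1 is described above. In these 6 genes the wider change was in replicates 1 and 2.

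**Figure D5:**
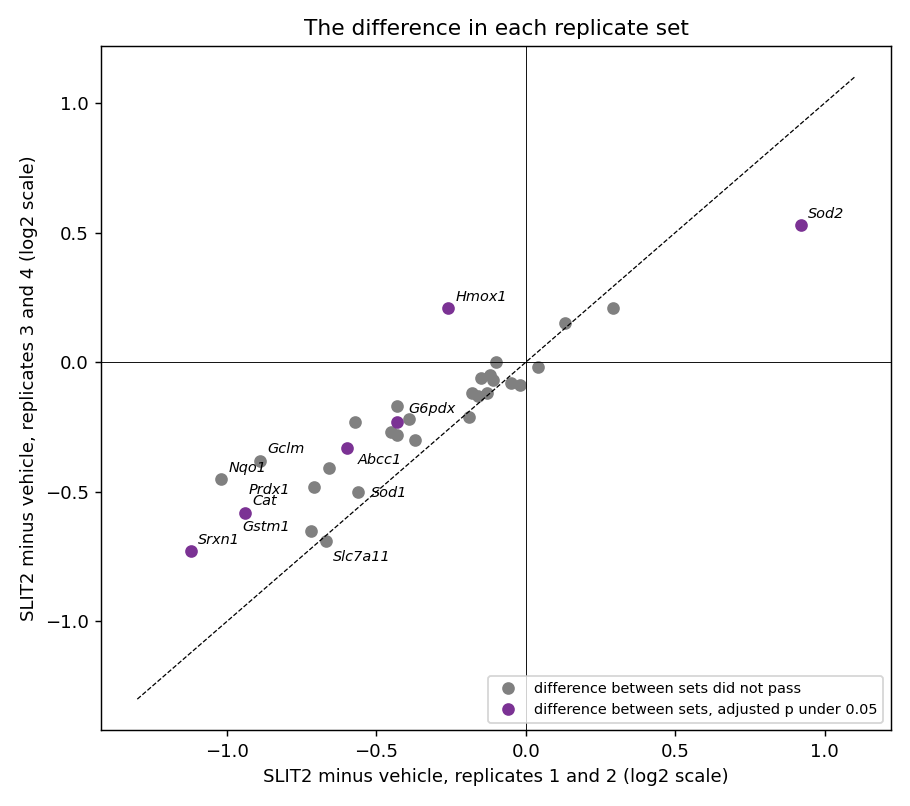
Difference between SLIT2 and vehicle in replicates 1 and 2 (horizontal axis) and in replicates 3 and 4 (vertical axis), both on a log2 scale, for the 32 genes, with a dashed line of equal differences. Purple points are the 6 genes that passed the test of the difference between the sets. Most genes with a negative difference lie above the line, and Hmox1 lies at -0.26 and 0.21.

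Beyond these genes, a list of 126 further genes of the same pathways was read from the same fit. Of the 104 tested, 14 fell, which is 13.5% against 6.58% of all genes tested, and 3 rose, which is 2.88% against 6.76%. The median difference was -0.059. Among 13 regulators and partners of NRF2, Sqstm1, the p62 protein that sequesters KEAP1 and is itself an NRF2 target, fell by 0.48 (adjusted p = 4.82e-04). Bach1, a repressor that competes with NRF2 for response elements, had a positive difference of 0.31. It did not pass (limma, adjusted p = 0.0600), but did with the block (3.32e-04) and with duplicates averaged (0.0476). Its vehicle libraries lay between 12.54 and 12.80 and its SLIT2 libraries between 12.84 and 13.14. The groups of Bach1 did not overlap. Of the small MAF partners, Mafg and Mafk differed by -0.09 and -0.08 and Maff by 0.54 (adjusted p = 0.178), and none passed. Cul3, the ubiquitin ligase scaffold that works with KEAP1, differed by 0.07.

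Of 29 detoxification genes tested in the wider list, 6 fell, 0 rose and 23 did not pass, and 25 had a negative difference. Over all genes tested, 6.58% fell, 6.76% rose and 49.1% had a negative difference. The detoxification genes that fell were lower, Gsta3 by 0.91, Akr1b8 by 0.68, Esd by 0.62, Gstm4 by 0.42, Akr1a1 by 0.24 and Ugdh by 0.23. These encode glutathione transferases, aldo-keto reductases, the formaldehyde-clearing esterase D and UDP-glucose dehydrogenase. With the block, where 16.4% of all genes tested were lower and 16.6% higher, 14 of the 29 were lower and 3 higher. In the wider thioredoxin list, Sesn1, a sestrin, fell by 0.49 and Msra, which repairs oxidized methionine, by 0.60. Prdx2, a cytosolic peroxiredoxin, rose by 0.21. Gpx3, the secreted glutathione peroxidase, fell by 0.98 (SE 0.24, adjusted p = 0.0299), and Idh2, a mitochondrial source of NADPH, by 0.25.

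Heme and iron genes had negative differences for all 8 tested (49.1% of all genes tested), and 3 of them fell (6.58% of all genes tested). They were the iron exporter Slc40a1, by 1.11, the heme transporter Flvcr1, by 0.47, and Slc48a1, which moves heme out of the phagolysosome, by 0.36. Ferritin genes Fth1 and Ftl1 differed by -0.19 (adjusted p = 0.277) and -0.32 (adjusted p = 0.101; 0.00586 in the blocked fit, lost at 0.159 when duplicates were averaged). In glutathione turnover, 1 of 11 genes tested rose (6.76% of all genes tested), the neutral amino acid transporter Slc1a4, by 0.59. The phagocyte NADPH oxidase, the source of superoxide, had 1 gene of 8 tested past the threshold, Ncf4, which rose by 0.28. Its catalytic subunit Cybb differed by -0.12 (adjusted p = 0.616) and Ncf1 by 0.27 (adjusted p = 0.203; 8.84e-04 in the blocked fit, lost at 0.0632 when duplicates were averaged).

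The libraries carried macrophage markers, and the summed osteoclast markers, mostly Atp6v0d2, were lower with SLIT2. Of 10 macrophage genes 9 had a mean of at least 4 and Tyrobp was listed at 0, which does not show absence. Their summed level, log2 of the summed linear values, ran from 19.05 to 19.55 in vehicle and from 19.01 to 19.54 in SLIT2. For 8 osteoclast genes, which M-CSF cultures can express, the sums ran from 13.47 to 14.02 in vehicle and from 12.69 to 13.29 in SLIT2. Atp6v0d2 made up 88.0% of the sum of group means in vehicle and 87.8% in SLIT2, so this sum largely follows that gene. Calcr was at 0, and 3 of the 6 tested fell past the threshold (Dcstamp, Itgb3 and Atp6v0d2). Acp5, Ctsk and Mmp9 differed by -0.05, -0.02 and -0.43 and did not pass. In 5 of the other lists 1 gene made up 94.2% to 99.1% of the sum of group means, so those sums follow that gene and not the list. The dendritic sum (9.93 to 10.43 and 9.31 to 9.79) was nearly all Itgax, with 6 of 8 genes under a mean of 4, and the T and NK cell sum (9.89 to 10.25 and 9.41 to 9.78) was nearly all Cd4, with 7 of 8 under it and Cd3d, Cd3e and Cd3g below 0 in both groups. The mast cell and basophil sum (5.12 to 5.61 and 4.68 to 5.09) was nearly all Kit, with 5 of 6 under a mean of 4 and Cpa3, Fcer1a and Tpsb2 at 0. These 3 sums did not overlap between groups. The sums overlapped for B cell genes (10.05 to 10.41 and 9.56 to 10.21, nearly all Ighm, 5 of 6 under a mean of 4, Pax5 at 0) and for erythroid and megakaryocyte genes (9.06 to 10.53 and 9.96 to 12.31, nearly all Pf4, 6 of 8 under it, Hbb-bs at 0). They also overlapped for neutrophil genes (6.50 to 7.28 and 6.49 to 6.94, 8 of 10 under it, Ly6g and Retnlg at 0) and for stromal and endothelial genes (10.34 to 10.61 and 10.52 to 10.85, 5 of 11 under it). Pf4 was higher with SLIT2 inside each set, by 1.65 in replicates 1 and 2 and by 1.06 in replicates 3 and 4. Over all libraries Pf4 did not pass (limma, adjusted p = 0.212, 7.15e-04 with the block, 0.0512 with duplicates averaged). The part of the listed cell types in the results was not tested.

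The count of genes that fell among the 32 was 7 without vehicle replicate 1, vehicle replicate 2, SLIT2 replicate 1 or SLIT2 replicate 4. Gclc, Srxn1, Prdx1, Cat, Sod1, Taldo1 and Gstm1 fell and Sod2 rose in each of the 8 fits that left out a library. When replicates 1 and 2, and 3 and 4, were averaged within a group and set was a block, 3 of the 32 genes fell (Sod1, Gstm1 and Slc7a11, adjusted p = 0.0336, 0.0292 and 0.0332), and none rose by limma (20 lower and 2 higher at an unadjusted p under 0.05).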

How the data were processed

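Messenger RNA of 8 samples of bone marrow-derived macrophages was sequenced as stranded paired-end libraries, per the labels' protocols. The authors deposited rlog values on a log2 scale to 2 decimals, with no counts. Per the submitters' processing notes, DESeq2, Salmon, STAR, Picard 2.23.8, SAMtools 1.7 and FastQC 0.11.9 were used with mm10 and GRCm38. Their roles and the strand setting are not stated there. An rlog is scaled for library size, and differences of low genes are shrunken. The depth per sample is unknown.

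Genes whose mean rlog reached 4 entered a limma fit (version 3.58.1, R 4.3.3, mean-variance trend, treatment only, two-sided, Benjamini-Hochberg over all 11851 genes, threshold 0.05). The labels number replicates 1 to 4 in both groups, and deviations from the group mean correlated across genes between vehicle and SLIT2 samples of one number (0.637, 0.671, 0.753 and 0.587 for numbers 1 to 4). Number was a block in an alternative fit, while the reported counts come from the fit without it unless stated. Samples of different number within a replicate set correlated similarly, at 0.601 to 0.722. These correlations therefore follow the sets and do not show a pairing by number within a set. Alternatives were this block, averaged duplicates, each set alone, other filters, variance priors and scalings, and leaving out each library.

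Genes were matched by current symbol through their identifiers, of which 41157 matched GENCODE M21, the source of coordinates and overlaps. Near-identical transcripts were sought with blastn 2.17.0 (at least 95% identity over 200 bases), and 8 of the 33 genes had one, with every listed copy at a mean rlog below 4. Promoters came from RefSeq (GRCm38.p6). Figures were drawn with matplotlib 3.10.9. All 33 genes are accounted for, with library values for those past the threshold, for Nfe2l2 and Keap1, for the smallest p in a group with none past, and for Slc7a11, G6pdx, Abcc1, Nqo1 and Hmox1, which were added after their values were seen. From the wider list, genes past the threshold were named, up to 5 per group. Ugdh, Bach1, Mafg, Mafk, Maff, Cul3, Fth1, Ftl1, Cybb and Ncf1 were added after their values were seen. The members, lists and tests were chosen with earlier results of these data known. The fits were tested on simulated data, in which the blocked fit made more false calls than the unblocked one, and above the threshold's rate under one of 2 noise models.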

Additional observations from a re-analysis of the deposited data

Results flagged for a closer look

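The effect of SLIT2 differed between the replicate sets in 6 of the 32 genes tested, by a limma interaction test. The effect in replicates 3 and 4 minus that in replicates 1 and 2 was 0.39 for Srxn1 (adjusted p = 0.0315), 0.36 for Cat (0.0459), 0.20 for G6pdx (0.0276), 0.26 for Abcc1 (0.0196), 0.47 for Hmox1 (0.00161) and -0.40 for Sod2 (0.0447). In 5 of them the direction was the same in both sets, and in Hmox1 it was opposite.

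A gap check flagged a single library in 2 of 64 groups of 4 values checked, where chance flags about 1 in 20. The check compares the gap to the nearest library with the range of the group, so a small gap can be flagged in a tight group. Srxn1 read 11.69 in SLIT2 replicate 1, next to 11.61 in the nearest library, and Mgst1 read 11.95 in SLIT2 replicate 3, next to 11.79.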

How the results depend on the processing

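With the replicate block, 22 of the 32 genes fell (12 without it), 30 of the 104 wider genes fell and 15 rose (14 and 3 without it), and 1946 of all genes fell and 1966 rose (780 and 801 without it). With averaged duplicates, 3 of the 32 fell and 0 rose by limma, 10 wider genes fell and 1 rose, and 315 of all genes fell and 373 rose. In replicates 1 and 2 alone, 24 of the 32 fell, 33 wider genes fell and 18 rose, and 1958 of all genes fell and 2004 rose. In replicates 3 and 4 alone, 11 of the 32 fell and 3 rose, 22 wider genes fell and 9 rose, and 1411 of all genes fell and 1469 rose. Leaving out each library in turn gave 7 to 14 of the 32 lower and 1 to 2 higher, 10 to 14 wider genes lower and 2 to 4 higher, and 504 to 602 of all genes lower and 517 to 665 higher, the lowest of both without SLIT2 replicate 2. The cause of these shifts was not tested, beyond the fewer samples that some of these fits hold. The median difference of the 32 genes lay between -0.382 and -0.215 under every alternative run. Of 608 single-gene results under alternatives, 518 kept their direction and side of the threshold, 51 lost the threshold, 30 gained it and 9 changed sign. Hmox1 was at 0.21 in replicates 3 and 4 alone (adjusted p = 0.00741), the single sign change past the threshold, and ran from -0.13 to 0.08 as libraries were left out, above 0 without vehicle replicate 1 or 2 and at 0 after rounding without SLIT2 replicate 3. Gss was at -0.02 and Gsr at 0 after rounding in replicates 3 and 4 alone. As libraries were left out, Gss ran from 0 (without SLIT2 replicate 1) to 0.02, and Gstp1 from -0.01 (without vehicle replicate 4) to 0.30, with 0 without SLIT2 replicate 1. No depth was given, so it cannot be said how far depth limits the lower genes.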
